A study of Homo sapiens with 6 samples.

Results

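The 35 genes described here encode the machinery by which cells answer misfolded proteins and amino acid shortage, and they fall into 3 arms. The ATF6 and XBP1 arm has 16 genes, the ATF4 arm has 10 and the heat shock arm has 9. Where several probe sets are annotated to a gene, alone or together with other genes, the brightest by its mean over all 6 arrays stood for it. This gave 34 probe sets, because HSPA1A and HSPA1B share one, out of 20293 probe sets chosen in the same way for 21357 genes. The probe set of a gene was picked by its mean level and not by the difference between treatments, whereas the genes were listed with earlier results of these data known.

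Cells of MOLM-14, a line established from human acute myeloid leukaemia with an MLL-AF9 rearrangement, received 25 nM of cortistatin A (CA) for 3 h. CA is a natural steroidal alkaloid and an inhibitor of CDK8 and CDK19, the kinases of the Mediator complex. The comparison cells were the same line after 3 h in the solvent DMSO (dimethyl sulfoxide). There were 3 samples in either group, each on its own Affymetrix U133 Plus 2.0 array, and the question is which transcripts differ after 3 h of CA. Per the labels the wells were plated in triplicate, with no separate cultures named. The p-values and confidence intervals here therefore reflect a spread between samples that may be technical. All samples are of 1 line at 1 dose and time. RNA was isolated with either RNeasy or TRIzol, and the labels do not say which of them served which sample. No sample analysed here was heated or given an agent that misfolds proteins, so the range of response that these probe sets could show was not measured.

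Array medians lay between 5.03 and 5.08 on the log2 scale, and correlations between arrays lay between 0.996 and 0.998. CA replicate 3 stood apart on the first principal component, at 19.7 against -8.21 to 1.22 for the other 5 arrays, a component that held 31.6% of the variance. It was the lowest of the 6 arrays for 14 of the 34 probe sets (41.2%), against 20.7% of all probe sets tested, so results are also given without it where they change. Of 7 measured markers of myeloid leukaemia cells, 6 lay above the median probe set, with FLT3 at 10.36 in CA and 10.32 in DMSO, and ANPEP lay below it at 4.21 in CA and 4.15 in DMSO. Of 4 lymphoid markers (T, NK and B cells) 2 lay below the median probe set, as did 2 of 4 epithelial and fibroblast markers and 0 of 2 erythroid markers. NKG7, KRT18 and COL1A1 lay at 7.65, 9.25 and 7.03 in CA and at 7.63, 9.27 and 7.08 in DMSO. None of these 17 markers passed the test (lowest adjusted p = 0.106 in limma, for MEIS1). A level is an average over the cells of a well, so fewer cells with a transcript and less of it per cell cannot be told apart.

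The unfolded protein response begins in the endoplasmic reticulum (ER), where the sensors ATF6, IRE1 and PERK (EIF2AK3) are held by the chaperone HSPA5 and freed when unfolded proteins accumulate. ATF6 is cut to a transcription factor, IRE1 splices the XBP1 transcript into the form that encodes an active factor, and both raise chaperones, folding enzymes and the degradation machinery of the ER. PERK phosphorylates the initiation factor eIF2, which slows translation and lets ATF4 be made. Other eIF2 kinases that sense amino acid shortage, haem and viral RNA feed into the same step. In the cytosol and nucleus, HSF1 is held by chaperones and, once freed, raises the heat shock chaperones.

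None of the 34 probe sets passed an adjusted p under 0.05 in limma (two-sided, Benjamini-Hochberg adjustment over all 20293). Over all probe sets 0.892% passed, of which 0.828% were higher in CA and 0.0641% lower, so a set of 34 would hold few calls at the background rate. Of the 34, 4 had an unadjusted p under 0.05, with CA higher for 3 and lower for 1, against 11.6% of all probe sets, with CA higher for 7.09% and lower for 4.49%. The closest to the threshold were DNAJB9 (adjusted p = 0.0710 in limma) and XBP1 (adjusted p = 0.122 in limma). Both passed when limma's variance followed an intensity trend in a robust fit, at an adjusted p = 0.00492 for DNAJB9 and 0.00405 for XBP1 in limma. That setting called 567 probe sets, against 181. No gene is therefore described as changed by the treatment, and the values below are read by their size, their interval and their spread over arrays.

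The intervals were narrow, though they rest on a spread between samples that may be technical. For 33 of the 34 probe sets the 95% confidence interval of the change lay within 1.5-fold in either direction, and for 31 it lay within 1.3-fold. The exceptions to the narrower bound were XBP1, DNAJB9 and the probe set of HSPA1A and HSPA1B. All 34 lay above the median probe set of the arrays, the dimmest being CHAC1, for which 66.6% of probe sets were dimmer. HSP90AA1 and HSPA8 lay near the top of the scale, with 99.7% of probe sets dimmer than either, a range in which differences of array signal can be compressed.

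**Figure D1:**
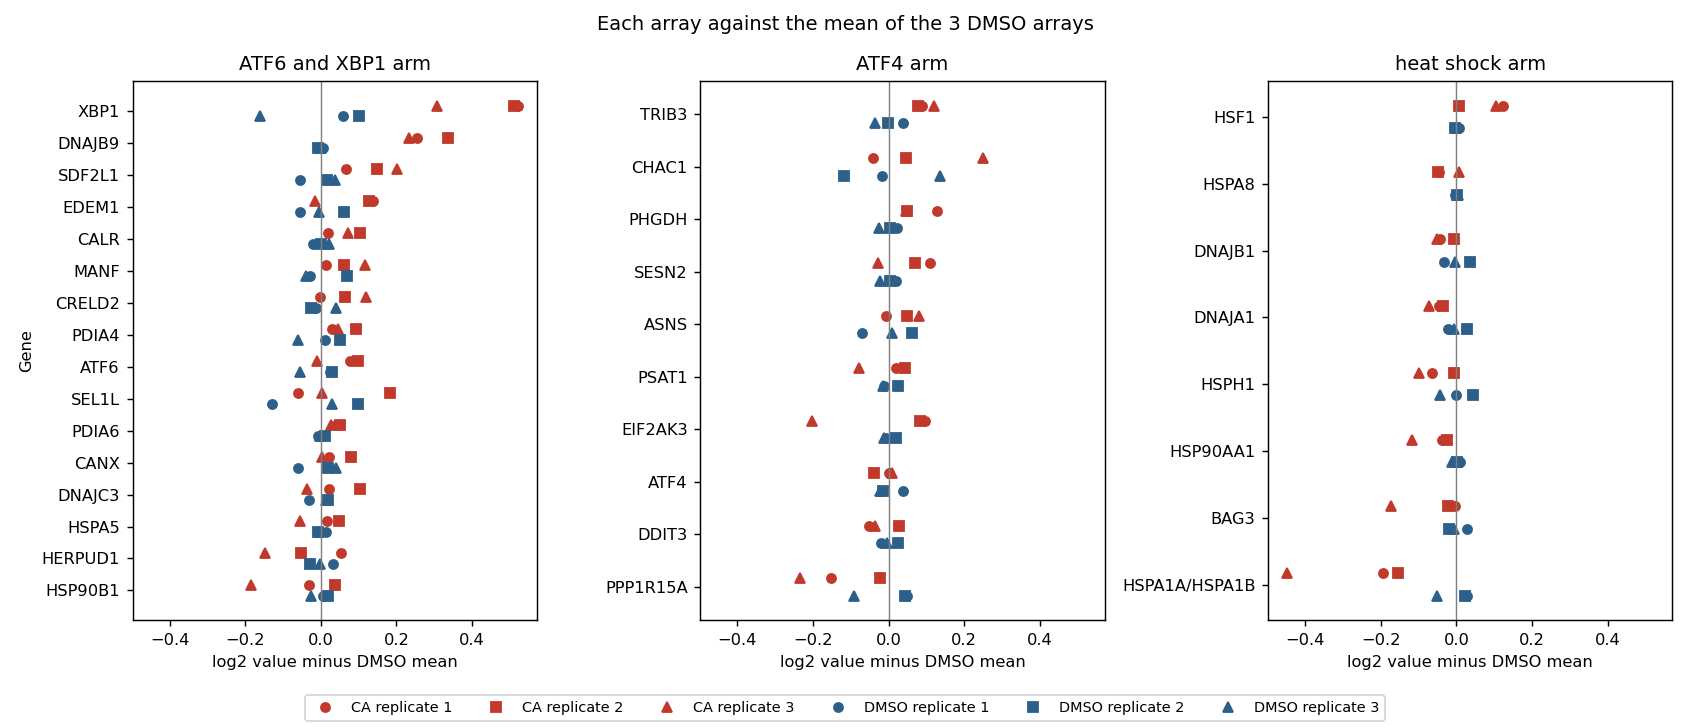
Each gene's log2 value on each array minus the mean of the 3 DMSO arrays, in 3 panels by arm, with CA in red above DMSO in blue and a marker shape for each replicate number. XBP1 and DNAJB9 have all 3 CA arrays to the right of all 3 DMSO arrays, and the shared probe set of HSPA1A and HSPA1B has all 3 CA arrays to the left, with CA replicate 3 the farthest.

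The ATF6 and XBP1 arm lay slightly above 0 as a whole. Of its 16 probe sets 14 had a log2 change above 0, against 51.8% of all probe sets, and the median was 0.056 against 0.0041 over all probe sets. The count was 16 of 16 with a median of 0.061 without CA replicate 3, and 11 of 16 with a median of 0.036 without CA replicate 2, against medians of -0.0014 and 0.0089 over all probe sets. Groups did not overlap for 4 of the 16, all with CA higher, against 11.9% of all probe sets, and 0 of 16 had CA lower, against 7.49%. Over all 43 probe sets of these genes 28 had changes above 0 and 15 below. Of the 43, 9 had all CA arrays above all DMSO arrays and 3 had them below, against 8.96% and 6.55% of all non-control probe sets. The 9 include 4 of PDIA6 and 2 of DNAJB9, and the 3 include 2 of HSP90B1, so they are not independent. As means over the probe sets of a gene, 12 changes were above 0 and 4 below.

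XBP1, the transcription factor of the IRE1 branch, had the largest change of the 35 genes. Its log2 values were 11.49, 11.48 and 11.28 in the CA arrays, against 11.03, 11.07 and 10.81 in the DMSO arrays. The groups did not overlap, and replicate 3 was the lowest array within each group. The means were 11.42 ± 0.12 in CA and 10.97 ± 0.14 in DMSO (SD, n = 3 each), a log2 change of 0.45 ± 0.093 (SE), or 1.36-fold (95% confidence interval 1.17 to 1.59, adjusted p = 0.122 in limma). Leaving out 1 array at a time gave log2 changes between 0.37 and 0.52, with adjusted p between 0.109 and 0.344 in limma. The other probe set of XBP1, at 5.45 in CA and 5.49 in DMSO and so close to the array medians, had a log2 change of -0.032, and the mean of both gave 0.21. The probe annotation used here does not separate the spliced from the unspliced XBP1 transcript.

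DNAJB9, an ER co-chaperone of HSPA5 also known as ERdj4, was the next. It had log2 values of 8.76, 8.84 and 8.74 in CA, against 8.51, 8.50 and 8.50 in DMSO. All CA arrays were above all DMSO arrays, and the DMSO arrays differed little from each other. The means were 8.78 ± 0.054 in CA and 8.50 ± 0.0069 in DMSO, a log2 change of 0.27 ± 0.046 (SE), or 1.21-fold (1.12 to 1.31). All 3 probe sets of DNAJB9 had changes above 0, at 0.27, 0.21 and 0.25, and 2 of them had groups that did not overlap. On the third, CA replicate 3 lay at 7.31, below the DMSO arrays at 7.45, 7.52 and 7.38, while the other CA arrays lay at 7.87 and 7.91. DNAJB9 also passed with array weights (adjusted p = 0.0400 in limma) and without dim probe sets (adjusted p = 0.0209 in limma). It did not pass with any 1 array left out, with log2 changes of 0.24 to 0.30 and adjusted p of 0.0894 to 0.299 in limma. Over all alternatives its adjusted p reached 0.661 in limma.

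SDF2L1, a partner of ER chaperone complexes, had log2 values of 9.67, 9.75 and 9.81 in CA, against 9.55, 9.62 and 9.64 in DMSO. The groups did not overlap, and the log2 change was 0.14 (0.0089 to 0.27, adjusted p = 0.407 in limma). PDIA6, a protein disulfide isomerase, had a smaller change that all its probe sets shared. Its log2 values were 11.88, 11.89 and 11.86 in CA, against 11.83, 11.85 and 11.83 in DMSO. The 4 probe sets gave log2 changes of 0.040 to 0.092, and on each of them the CA and DMSO arrays did not overlap; over all non-control probe sets 8.96% had CA above DMSO in this way. These probe sets read 1 transcript and the same RNA, so they are not independent.

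The main chaperones of the ER lumen showed little difference. HSPA5 (BiP), the chaperone that binds the sensors, had log2 values of 11.79, 11.82 and 11.72 in CA, against 11.79, 11.77 and 11.77 in DMSO. The groups overlapped, and the log2 change was 0.0033 (-0.11 to 0.11, adjusted p = 0.988 in limma). Its dimmer probe set gave a log2 change of -0.17, with all CA arrays below all DMSO arrays. HSP90B1 (GRP94), the ER form of HSP90, had values of 12.24, 12.31 and 12.09 in CA, against 12.28, 12.29 and 12.24 in DMSO. CA replicate 3 was the low array, and the log2 change of -0.059 became 0.0030 without it. Of its other probe sets, a pair had all CA arrays below all DMSO arrays, with log2 changes of -0.079 and -0.098, and the dimmest gave 0.14 with overlapping groups.

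The other folding factors of the lumen lay close to their DMSO levels with overlapping groups. The lectin chaperones CALR (calreticulin) and CANX (calnexin) had log2 changes of 0.064 and 0.035. PDIA4, another disulfide isomerase, had 0.056, and the HSPA5 co-chaperone DNAJC3, which also restrains the kinase PERK, had 0.029. CRELD2 and MANF, secreted ER proteins that ER stress raises, had 0.060 and 0.063. The widest of these 6 intervals, that of MANF, ran from -0.063 to 0.19.

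Genes of sensing and ER-associated degradation also overlapped between groups. ATF6 had a log2 change of 0.055 (-0.068 to 0.18), while its other 3 probe sets had changes below 0, the lowest at -0.12. EDEM1, which directs misfolded glycoproteins to degradation, had 0.084, with values of 8.73, 8.72 and 8.57 in CA, against 8.53, 8.65 and 8.58 in DMSO. SEL1L, the partner of the ubiquitin ligase SYVN1, had 0.042, and its interval of -0.17 to 0.25 was the widest among arm members with overlapping groups. HERPUD1, a membrane component of the same machinery, had -0.049, and this became 0.00024 without CA replicate 3.

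The promoters of this arm carry a known sequence, the ER stress response element (ERSE), and are shown to set the letters beside the changes. The promoter table from RefSeq (GRCh38.p14) held windows of 250 bases before to 50 after a start site for 34 of the 35 genes, in 48 windows. The ERSE was searched on both strands as CCAAT and CCACG with any 9 bases between them, and 27 of 35116 windows in the table (0.0769%) held it. Of the 16 genes of the arm 7 held it, in 9 of 22 windows (40.9%), and no window of the ATF4 or heat shock arm did. The 8 sites follow, each read in the direction of the motif, with the fixed letters in capitals.
CALR, chr19:12938384-12938402, minus strand: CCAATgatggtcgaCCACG
CANX, chr5:179698778-179698796, plus strand: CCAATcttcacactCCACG
CRELD2, chr22:49918554-49918572, minus strand: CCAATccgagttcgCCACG
HSP90B1, chr12:103930216-103930234, plus strand: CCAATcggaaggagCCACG
HSP90B1, chr12:103930321-103930339, minus strand: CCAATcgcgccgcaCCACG
HSPA5, chr9:125241391-125241409, minus strand: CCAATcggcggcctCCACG
PDIA6, chr2:10812853-10812871, minus strand: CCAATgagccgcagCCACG
XBP1, chr22:28800603-28800621, minus strand: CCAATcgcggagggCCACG

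Of the 7 genes with an ERSE in the window 6 had a log2 change above 0, as did 8 of the 9 genes of the arm without one. The median of the 7 was 0.040, from -0.059 for HSP90B1 to 0.45 for XBP1. The median of the 9 was 0.056, from -0.049 to 0.27. A link between the ERSE and the changes was not tested. HSPA5 and XBP1 both hold a match and had changes of 0.0033 and 0.45. A shorter form, ERSE-II, searched as ATTGG and CCACG with any 1 base between them, was in 0.0541% of windows and in those of HERPUD1 and SDF2L1, which had log2 changes of -0.049 and 0.14. The core of the XBP1 element, TGACGTG, was in 1.97% of windows and in 0 of the 48. The letters CCACG alone, which also end the ERSE and the ERSE-II, were in 38.1% of windows and in 19 of the 22 of this arm.

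The windows of XBP1 and DNAJB9, which had the largest changes of the arm, are printed in full, with ERSE and CCACG matches on either strand in capitals. A second XBP1 window lies downstream.
XBP1, chr22:28800520-28800819, minus strand: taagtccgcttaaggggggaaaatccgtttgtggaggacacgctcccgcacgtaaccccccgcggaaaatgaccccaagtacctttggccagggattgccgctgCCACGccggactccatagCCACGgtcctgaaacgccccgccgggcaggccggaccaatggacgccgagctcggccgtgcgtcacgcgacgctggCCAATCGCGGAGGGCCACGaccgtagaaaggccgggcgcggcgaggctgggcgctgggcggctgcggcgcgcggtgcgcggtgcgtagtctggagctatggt
DNAJB9, chr7:108569624-108569923, plus strand: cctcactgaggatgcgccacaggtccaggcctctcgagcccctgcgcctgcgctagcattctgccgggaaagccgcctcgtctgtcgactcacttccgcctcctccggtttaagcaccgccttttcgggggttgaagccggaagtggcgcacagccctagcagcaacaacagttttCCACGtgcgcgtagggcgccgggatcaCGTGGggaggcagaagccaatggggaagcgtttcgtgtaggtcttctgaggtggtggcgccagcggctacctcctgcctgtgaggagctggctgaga

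In the XBP1 window the ERSE contains 1 CCACG and 2 more stand upstream of it. The DNAJB9 window holds CCACG in both orientations and no ERSE. A match is a description of the letters and not a measured binding site.

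The ATF4 arm lay close to 0 at 3 h. Of its 10 probe sets 5 had changes above 0 and 5 below, against 51.8% and 48.2% of all probe sets, and 0 reached an unadjusted p under 0.05, against 11.6%. The median log2 change was 0.018, and it was 0.0089 without CA replicate 1, 0.0084 without DMSO replicate 1 and -0.0085 without _x_at, _s_at and _a_at probe sets. It was higher, at 0.026, without CA replicate 3, where 7 of 10 changes were above 0. With array weights it was 0.035 (7 of 10 above 0), and as means over the probe sets of a gene 0.038 (6 of 10). Centred arrays gave 0.033 (8 of 10), against 0.019 over all probe sets. All 10 intervals lay within 1.3-fold. Groups did not overlap for 2 of the 10, TRIB3 and PHGDH, both with CA higher, against 11.9% of all probe sets with CA higher and 7.49% with CA lower.

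ATF4, the factor that leads the arm, had log2 values of 12.63, 12.59 and 12.64 in CA, against 12.67, 12.61 and 12.61 in DMSO. The groups overlapped, and the change was 0.994-fold (0.924 to 1.07, adjusted p = 0.956 in limma). ATF4 is controlled largely at translation, which these arrays do not measure. DDIT3 (CHOP), a factor that promotes death under lasting stress, had values of 7.69, 7.77 and 7.70 in CA, against 7.72, 7.76 and 7.73 in DMSO, and a change of 0.987-fold (0.916 to 1.06).

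Targets of ATF4 gave similar values. TRIB3, a pseudokinase that restrains ATF4, had 9.33, 9.32 and 9.36 in CA, against 9.28, 9.24 and 9.20 in DMSO. The CA arrays were all above, by a log2 change of 0.095 (-0.0087 to 0.20, adjusted p = 0.465 in limma). CHAC1, which degrades glutathione, had 6.08, 6.17 and 6.38 in CA, against 6.11, 6.01 and 6.26 in DMSO, and its interval of -0.15 to 0.32 was the widest of the arm. SESN2 (sestrin 2), which restrains mTORC1, had a log2 change of 0.051.

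The enzymes of amino acid synthesis stayed near their DMSO levels. ASNS (asparagine synthetase) had values of 10.55, 10.60 and 10.64 in CA, against 10.49, 10.62 and 10.56 in DMSO, and a log2 change of 0.041. PSAT1, of serine synthesis, had -0.0049 (-0.12 to 0.11). PHGDH, the first enzyme of that pathway, had 0.075 at a probe set that also lists MZT2A and MZT2B, and 0.0084 at the probe set that lists PHGDH alone.

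The genes that set and release eIF2 phosphorylation differed in their spread. EIF2AK3 (PERK) had values of 8.35, 8.34 and 8.06 in CA, against 8.25, 8.28 and 8.24 in DMSO. CA replicate 3 lay below the rest and the other CA arrays above them, so the log2 change of -0.0076 became 0.089 without it. PPP1R15A (GADD34), which directs the phosphatase that reverses eIF2 phosphorylation, had the lowest change of the arm. Its values were 6.16, 6.29 and 6.08 in CA, against 6.36, 6.35 and 6.22 in DMSO, which overlap, and the log2 change was -0.14 (-0.31 to 0.036, adjusted p = 0.530 in limma). The core of the C/EBP-ATF element, TGATGNAA, was in 3.62% of all windows and in 2 of the 15 of this arm (13.3%), those of ASNS and CHAC1. HERPUD1, of the ATF6 and XBP1 arm, also held it.

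**Figure D2:**
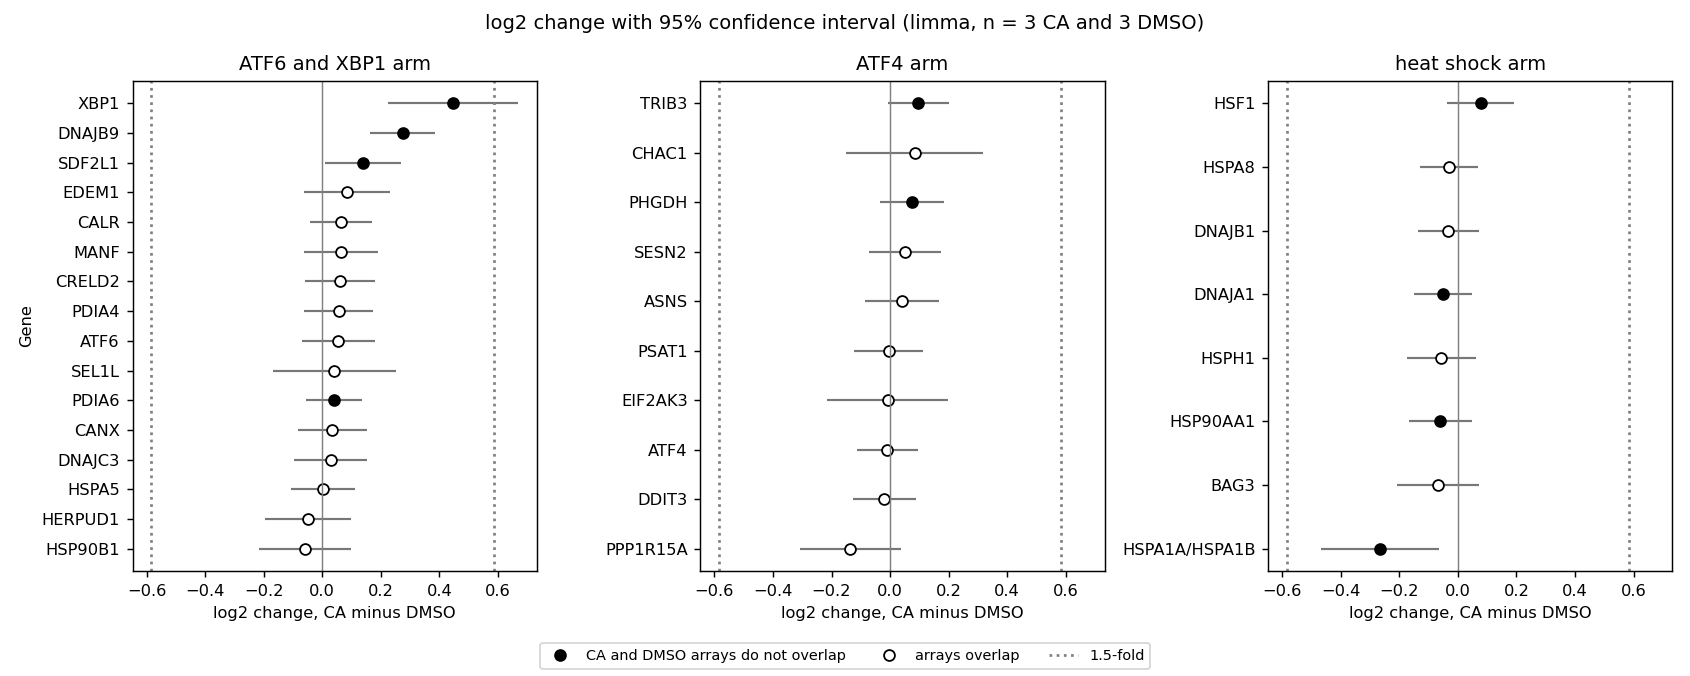
The log2 change of each gene, CA minus DMSO, with its 95% confidence interval from limma (n = 3 each), in 3 panels by arm. Filled points mark genes whose CA and DMSO arrays do not overlap, and dotted lines mark a 1.5-fold change, which the interval of XBP1 alone crosses.

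The heat shock arm lay slightly below 0. Of its 8 probe sets 7 had a log2 change below 0, against 48.2% of all probe sets, and the median was -0.054. Groups did not overlap for 4 probe sets, with CA lower for 3 and higher for 1, against 7.49% and 11.9% of all probe sets. CA replicate 3 was the lowest of the 6 arrays for 6 of the 8, against 20.7% of all probe sets. Without that array 7 of 8 were still below 0 and the median was -0.033, and without DMSO replicate 2 it was -0.036. Over all 21 probe sets of these genes, 17 had changes below 0. All CA arrays lay below all DMSO arrays for 8 of the 21 and above them for 2, against 6.55% and 8.96% of all non-control probe sets. The 8 include 4 of HSP90AA1 and 2 of DNAJA1, and probe sets of the same transcript are not independent.

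HSPA1A and HSPA1B encode the inducible HSP70 and are near-identical neighbours on chromosome 6. One probe set reads both, so the values are of the pair. They were 9.91, 9.96 and 9.66 in CA, against 10.14, 10.13 and 10.06 in DMSO. All CA arrays were below all DMSO arrays, and CA replicate 3 was the lowest by a wide margin. The means were 9.84 ± 0.16 in CA and 10.11 ± 0.044 in DMSO, a log2 change of -0.27 ± 0.085 (SE), or 0.832-fold (0.722 to 0.957, adjusted p = 0.312 in limma). Without CA replicate 3 the change was -0.17, more than 1.5 times smaller. The second probe set of the pair gave -0.083 with overlapping groups, the third, at a mean log2 value of 2.90 in CA and 2.74 in DMSO, gave 0.15, and the mean of all 3 gave -0.065. The RefSeq promoter windows of the pair matched at 277 of 299 aligned bases (92.6%).

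HSP90AA1, the inducible cytosolic HSP90, lay lower in CA at each of its probe sets. The brightest gave 13.91, 13.92 and 13.83 in CA, against 13.95, 13.95 and 13.93 in DMSO, a log2 change of -0.060 (-0.17 to 0.049, adjusted p = 0.659 in limma). All 4 of its probe sets had all CA arrays below all DMSO arrays, with log2 changes of -0.060, -0.11, -0.11 and -0.14. Over all non-control probe sets 0.22% passed in limma, 0.212% with CA higher and 0.00732% with CA lower, against 0 of the 81 probe sets of the 35 genes. DNAJA1, an HSP40 co-chaperone of HSC70, behaved alike on both of its probe sets, with log2 changes of -0.051 and -0.10 and no overlap between groups. It had 11.96, 11.98 and 11.94 in CA, against 11.99, 12.04 and 12.00 in DMSO.

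The other chaperones overlapped between groups at the probe sets used. HSPA8 (HSC70), the constitutive HSP70, had 13.84, 13.84 and 13.90 in CA, against 13.88, 13.89 and 13.89 in DMSO, a log2 change of -0.029. All 4 of its probe sets were below 0, and on 1 of them, at -0.054, all CA arrays were below all DMSO arrays. HSPH1 (HSP110), a nucleotide exchange factor of HSP70, had -0.056, and its 3 probe sets were all below 0. DNAJB1, the main HSP40 of the heat shock response, had -0.033 at the probe set used and 0.11 at its dimmer one, where all CA arrays were above all DMSO arrays. BAG3, which links HSP70 to autophagy, had 9.10, 9.08 and 8.93 in CA, against 9.13, 9.08 and 9.10 in DMSO, so its log2 change of -0.067 rested mostly on CA replicate 3 and was -0.014 without it.

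HSF1, the factor that drives the arm, was the member with a change above 0. Its values were 8.61, 8.50 and 8.59 in CA, against 8.50, 8.49 and 8.49 in DMSO, and the change was 1.06-fold (0.975 to 1.14, adjusted p = 0.589 in limma). The groups did not overlap, although CA replicate 2 was close to the DMSO arrays.

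The binding element of HSF1, the heat shock element (HSE), was searched in its complete form of 3 units as GAA, TTC and GAA with any 2 bases between units, on both strands. It was in 172 of 35116 windows (0.490%) and in 3 of the 11 windows of this arm, those of DNAJA1, HSP90AA1 and HSPA8, while the windows of HSPA1A and HSPA1B held no complete match. These sites were chosen for display with the changes known, as DNAJA1 and HSP90AA1 lay lower in CA at each of their probe sets. HSPH1 and BAG3, without a complete match, also had changes below 0 at each of their probe sets. DNAJB1 and the pair HSPA1A and HSPA1B, also without one, each had 1 probe set above 0. The 4 sites follow, with the fixed letters in capitals.
DNAJA1, chr9:33025276-33025288, plus strand: GAActTTCcaGAA
HSP90AA1, chr14:102087120-102087132, plus strand: GAAccTTCcgGAA
HSPA8, chr11:123062179-123062191, plus strand: GAAccTTCcaGAA
HSPA8, chr11:123062354-123062366, minus strand: GAAagTTCcaGAA

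The HSP90AA1 window that holds the element is printed in full, with the match in capitals on the opposite strand.
HSP90AA1, chr14:102086995-102087294, minus strand: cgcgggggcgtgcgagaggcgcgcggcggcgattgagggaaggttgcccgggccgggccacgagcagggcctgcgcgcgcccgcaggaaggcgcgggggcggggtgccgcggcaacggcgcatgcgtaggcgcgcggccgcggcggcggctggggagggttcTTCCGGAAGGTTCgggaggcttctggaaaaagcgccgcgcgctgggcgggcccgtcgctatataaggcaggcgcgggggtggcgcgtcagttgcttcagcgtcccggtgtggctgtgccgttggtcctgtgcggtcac

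The genes with a complete HSE had log2 changes of -0.051, -0.060 and -0.029, and HSPA1A and HSPA1B, without a complete match, had -0.27. Both windows of that pair hold gaatattcccgac, which differs from the searched form only in its last base. The search took exact matches only, so a gene without a match may still carry the element. A link between the element and the changes was not tested.

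**Figure D3:**
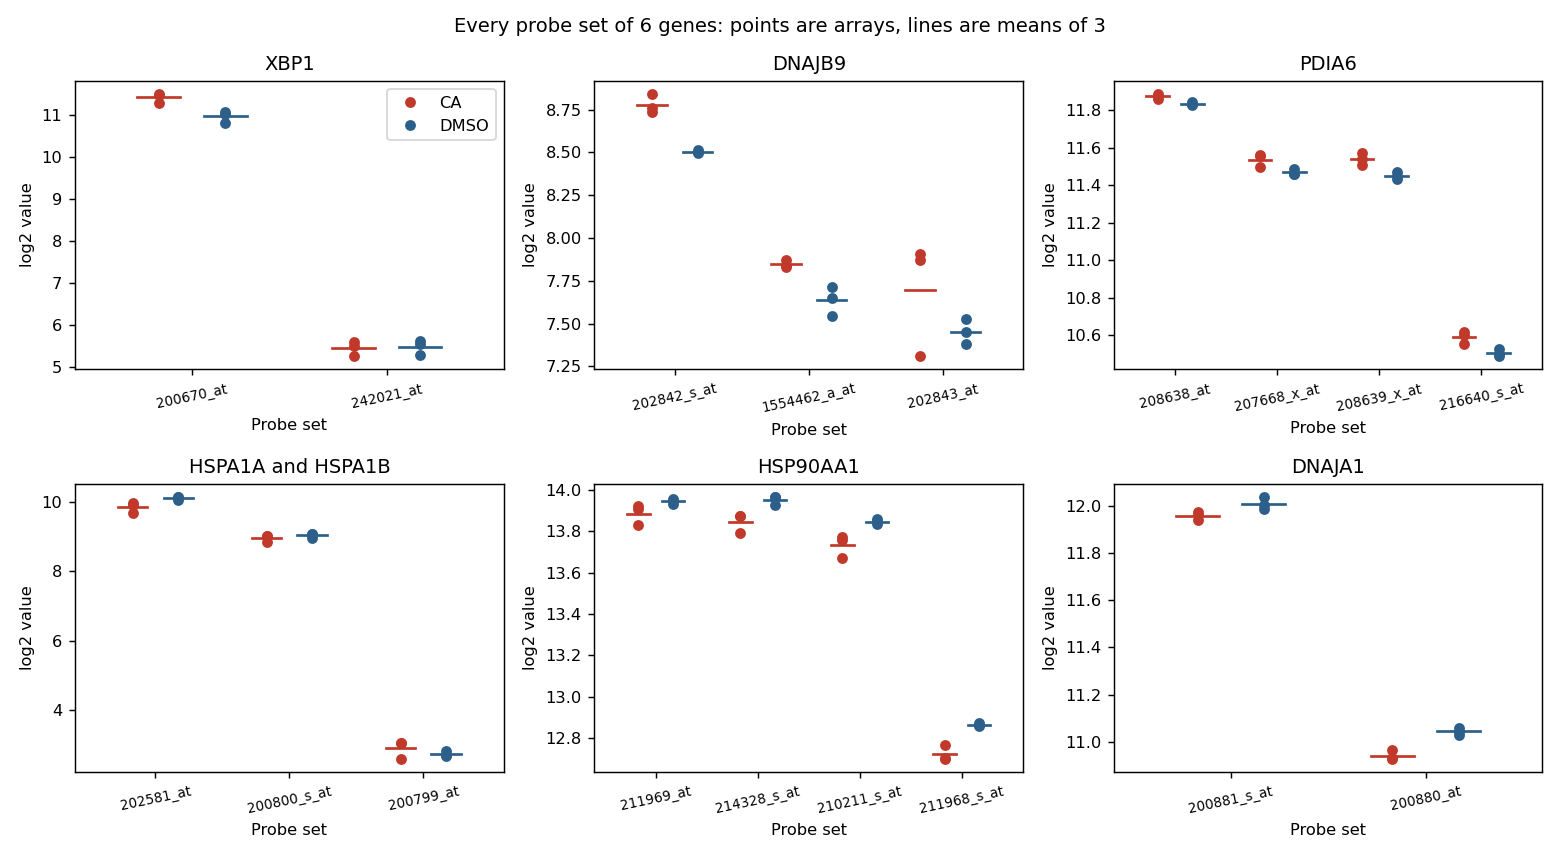
The log2 value of every probe set of 6 genes, with CA in red left of DMSO in blue, points for arrays and lines for means of 3; each panel has its own scale. The 4 probe sets of HSP90AA1 and the 2 of DNAJA1 have all CA arrays below all DMSO arrays, the 4 of PDIA6 have them above, and XBP1 differs at its bright probe set only.

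Other genes of the same pathways were described from 4 lists. Of 49 measured other genes of the ATF6 and XBP1 arm, 0 passed in limma, 2 had an unadjusted p under 0.05, both with CA higher, and 37 had a log2 change above 0 (median 0.037). Over all probe sets 7.09% were higher and 4.49% lower at that unadjusted p, and 51.8% were above 0. EDEM2, a relative of EDEM1, had 0.18, and FKBP2, an ER prolyl isomerase, had 0.14 (adjusted p = 0.234 and 0.311 in limma). WFS1, an ER membrane protein, had -0.18, and DERL1, of ER-associated degradation, had -0.089 (adjusted p = 0.516 and 0.534 in limma). The level of WFS1 was close to the array medians, at 5.33 in CA and 5.51 in DMSO. Groups did not overlap for 13 of the 49 with CA higher and 1 with CA lower, against 11.9% and 7.49% of all probe sets. The median over all probe sets was 0.0041.

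Of 45 measured other genes of the ATF4 arm 3 rose and 0 fell in limma, against 0.828% and 0.0641% of all probe sets, and 33 had a change above 0 (median 0.049). An unadjusted p under 0.05 was reached by 9 with CA higher and 2 with CA lower, against 7.09% and 4.49% of all probe sets. Groups did not overlap for 18 with CA higher and 2 with CA lower, against 11.9% and 7.49%. Of the 3 calls, VLDLR and DDIT4 were already known to have risen in these data when the list was drawn up, so nothing is read from these counts. SLC7A11, the cystine transporter that feeds glutathione synthesis, had 9.07, 9.24 and 9.16 in CA, against 8.61, 8.67 and 8.59 in DMSO. It was 1.45-fold higher in CA (1.32 to 1.60, adjusted p = 0.0177 in limma), and its other probe sets gave log2 changes of 0.65 and 0.18. VLDLR, a lipoprotein receptor, rose 1.39-fold (1.24 to 1.55, adjusted p = 0.0398 in limma), with 8.51, 8.59 and 8.46 in CA, against 8.02, 8.16 and 7.95 in DMSO. DDIT4 (REDD1), an inhibitor of mTORC1 also raised by hypoxia and glucocorticoids, rose 1.24-fold (1.16 to 1.33, adjusted p = 0.0308 in limma), with 12.51, 12.50 and 12.47 in CA, against 12.17, 12.17 and 12.21 in DMSO.

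Each of these 3 calls was lost when any 1 array was left out, with adjusted p between 0.0542 and 0.219 in limma, while the log2 changes stayed between 0.50 and 0.58 for SLC7A11, 0.43 and 0.53 for VLDLR and 0.30 and 0.32 for DDIT4. ATF5, a factor of the same family as ATF4, lay lower in CA, at 7.40, 7.44 and 7.53, against 7.84, 7.76 and 7.74 in DMSO. Its log2 change of -0.32 did not pass in the main fit (adjusted p = 0.0752 in limma). Over the alternatives its adjusted p went down to 0.00970 in limma, and with 1 array left out it was 0.0714 to 0.317. All 4 of its probe sets had changes below 0. FGF21, a secreted hormone and ATF4 target, had -0.21 (adjusted p = 0.324 in limma). It lay close to the array medians, at 5.07 in CA and 5.29 in DMSO.

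Of 47 measured other heat shock genes 0 passed in limma and 7 had an unadjusted p under 0.05, with CA higher for 4 and lower for 3, against 11.6% of all probe sets, with 7.09% higher and 4.49% lower. Their median log2 change was 0.0020. Groups did not overlap for 11 with CA higher and 7 with CA lower, against 11.9% and 7.49% of all probe sets. The HSP90 partners STIP1 and CDC37 had 0.15 and 0.16 (adjusted p = 0.314 and 0.328 in limma). SQSTM1 (p62), an autophagy receptor, had -0.21, and HMOX1, haem oxygenase 1, had -0.17 (adjusted p = 0.158 and 0.309 in limma). The level of HMOX1 was close to the array medians, at 5.38 in CA and 5.54 in DMSO. The other 4 probe sets of SQSTM1 overlapped between groups and gave log2 changes of -0.13, -0.00063, 0.0062 and 0.17. Of 15 mitochondrial chaperones and proteases 0 passed in limma, while 2 had an unadjusted p under 0.05, both with CA higher, against 7.09% of all probe sets. Groups did not overlap for 7 of the 15 with CA higher and 1 with CA lower, against 11.9% and 7.49% of all probe sets. LONP1, a matrix protease, and GRPEL1, a partner of the mitochondrial HSP70, had 0.14 and 0.11 (adjusted p = 0.283 and 0.353 in limma). The inner membrane proteases YME1L1 and AFG3L2 had -0.087 and -0.054 (adjusted p = 0.673 and 0.679 in limma). Both other probe sets of AFG3L2 gave 0.058, and those of YME1L1, many of them dim, ran from -0.20 to 0.20.

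**Figure D4:**
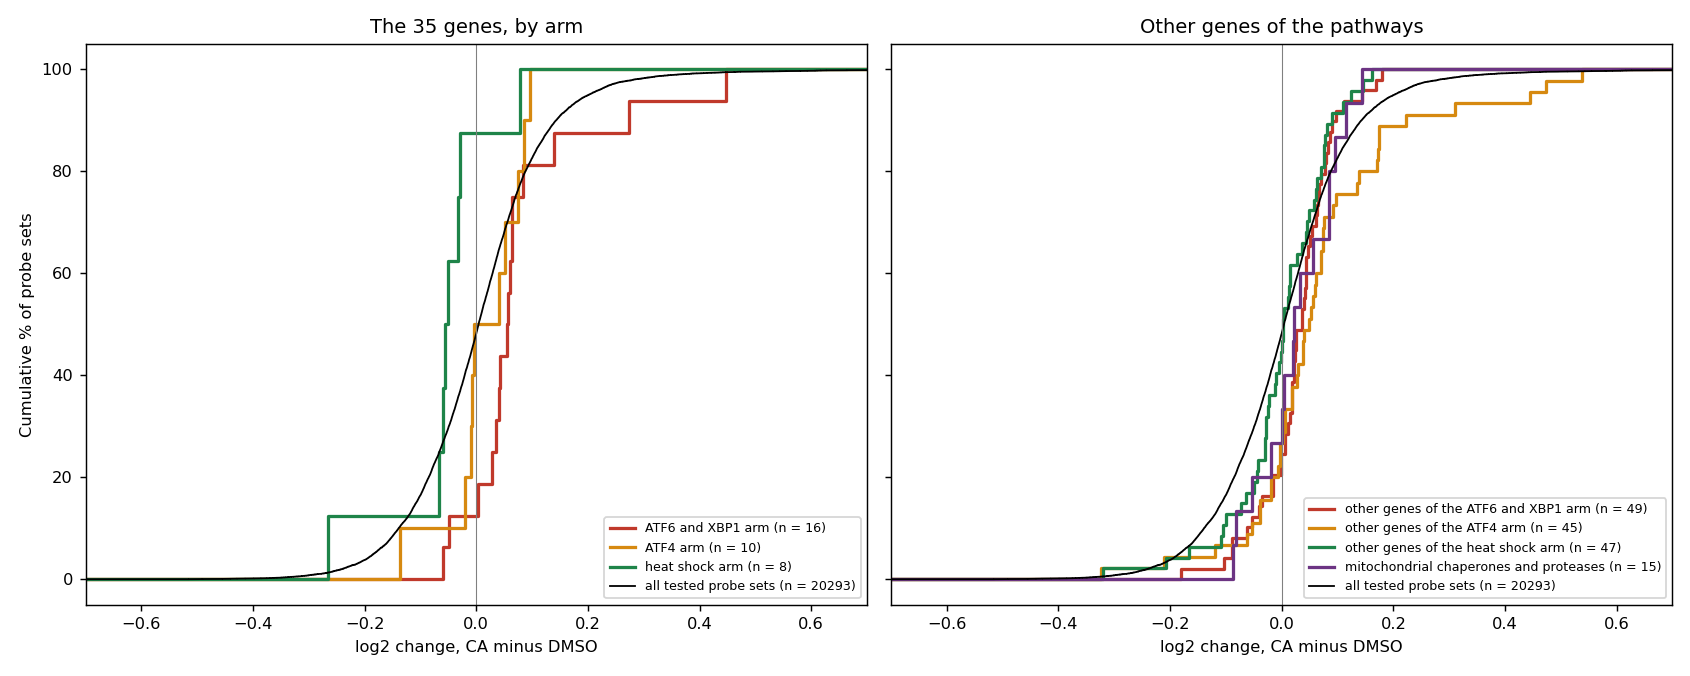
Cumulative percentage of probe sets by log2 change, CA minus DMSO, for the 3 arms (left) and for 4 lists of other genes (right), beside all 20293 probe sets in black. The heat shock arm lies left of the black line near 0 (median -0.054) and the ATF6 and XBP1 arm right of it (median 0.056). The list of other ATF4 genes has the longest right tail, but VLDLR and DDIT4 were known to have risen when it was drawn up.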

How the data were processed

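The deposited values are log2 expression per probe set, for which the submitters' processing notes name RMA and affy. RMA quantile normalises the arrays, which removes any shift common to every gene, and it can compress differences at the dim and bright ends. No version, scan date or batch was known. The values were used as they stood.

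Of 54675 probe sets, 62 controls were left out. Genes came from the platform annotation, in which 41091 of the other probe sets had 1 symbol, 1801 several and 11721 none; 45774 of 45867 pairs of probe set and gene matched a RefSeq gene number and 0 symbols changed. For each gene the probe set with the highest mean was kept, and one chosen for several genes entered once. Titles gave the groups. The difference, CA minus DMSO, was tested in limma 3.58.1 under R 4.3.3 (lmFit and eBayes without trend or block), adjusted by Benjamini-Hochberg over 20293 probe sets and called under 0.05. An exact two-sided permutation test of 3 against 3 arrays reaches 0.1 at the lowest. The steps were tested on simulated data. The members, lists and rule were chosen with earlier results of these data known. Named were all members, called genes of 4 lists, and the 2 genes with the smallest p per direction and list. Alternatives were the replicate block, leaving out each array, another variance model, array weights, a filter on dim probe sets, other choices of probe set and median centring. Some listed genes and markers were not analysed here.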

Additional observations from a re-analysis of the deposited data

How the results depend on the processing

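Over all probe sets, the 181 calls became 567 with the intensity trend in a robust fit, 361 without dim probe sets, 120 over all non-control probe sets, 70 without _x_at, _s_at and _a_at probe sets, 6 with the replicate block, and 0 to 110 when 1 array was left out. Calls among the 34 probe sets were 0, except for 2 with the trend and robust fit (XBP1 and DNAJB9), 1 with array weights and 1 without dim probe sets (DNAJB9 in both), and stayed at 0 when 1 array was left out. Other ATF4 arm genes had 3 calls, all with CA higher. These became 6 with the trend and robust fit (5 higher, 1 lower) and 5 without dim probe sets (4 higher, 1 lower). Array weights gave 3 higher and 1 lower, and centred arrays gave 2 higher. There was 1 call, with CA higher, over all non-control probe sets and 1 without _x_at, _s_at and _a_at probe sets. There were 0 with the replicate block and in each fit without 1 array. The other heat shock genes had 1 call with the trend and robust fit, SQSTM1, lower in CA (adjusted p = 0.0344 in limma). The median of the heat shock arm was -0.10 without _x_at, _s_at and _a_at probe sets, where 5 of its probe sets were left. The median over all probe sets moved to 0.019 when arrays were centred on their median.

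The replicate numbers do not pair the samples by the labels, and deviations of same-numbered samples correlated at 0.041, 0.22 and 0.25. With the replicate block adjusted p was 0.0866 for XBP1 and 0.185 for DNAJB9 in limma.

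Some signs turned. With array weights, PSAT1 had 0.015 and EIF2AK3 0.048. With centred arrays, ATF4 had 0.0055, PSAT1 0.010 and EIF2AK3 0.0073. As means over probe sets, HSPA5 had -0.083, ATF6 -0.053, ASNS -0.075, PSAT1 0.035, EIF2AK3 0.067, DNAJB1 0.037, YME1L1 0.021 and AFG3L2 0.021. Without _x_at, _s_at and _a_at probe sets, CANX had -0.023, ASNS -0.19 and SQSTM1 0.0062, against -0.21 at its brightest probe set. Leaving out 1 array gave -0.019 to 0.032 for HSPA5, -0.0083 to 0.062 for DNAJC3, -0.028 to 0.093 for SEL1L, -0.11 to 0.0030 for HSP90B1, -0.10 to 0.00024 for HERPUD1, -0.021 to 0.010 for ATF4, -0.029 to 0.032 for PSAT1 and -0.060 to 0.089 for EIF2AK3. The cause of a turned sign was not tested, also where an alternative used fewer samples or other probe sets. Precision is limited by the number of arrays, and the median SE of a log2 change was 0.050 over the 34 probe sets and 0.071 over all.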
